A study of Mus musculus with 34 samples.

Results

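Matrix proteases and their inhibitors were examined as 10 genes in the left ventricle (LV) of mice after myocardial infarction (MI). The members were picked out by gene symbol. They are the matrix metalloproteinases Mmp2, Mmp3, Mmp9 and Mmp14, the secreted proteoglycan-cleaving proteases Adamts1 and Adamts4, and the tissue inhibitors of metalloproteinases Timp1, Timp2, Timp3 and Timp4. All 10 were listed in both expression tables of the series, out of 14552 genes in the first and 17406 in the second, and all 10 passed the filter of a mean of 1 CPM or more (CPM, read counts scaled to library size) in each table.

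CFW (Swiss Webster) mice were used throughout, and the infarct came from a permanent tie around the left anterior descending coronary artery. Ages are not given in the sources used here. The first table holds 10 libraries from mice that received no injection: 3 titled sham, 3 at 4 h post-MI (MI 4 h) and 4 at 24 h post-MI (MI 24 h), with tissue cut from the ischemic area, or from the matching place in a sham heart. The study describes these controls as sham operated, while their stress label reads no operation. The second table holds 24 libraries: 2 of sham-operated hearts at 4 h, and hearts with MI injected at the border zone with AC or Luc modRNA (synthetic modified mRNA, with a labelled dose of 100 mg as the labels write it). The numbers are 4 Luc and 4 AC libraries at 4 h, 3 and 3 at 24 h, and 4 and 4 at 48 h. Luc is the study's luciferase reporter. The labels do not spell out AC, and the paper's text does not describe these 24 libraries. No second-table heart was infarcted and left uninjected, so MI and injection cannot be told apart there, and the border-zone injection limits it as a model of MI alone.

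Matrix metalloproteinases are zinc enzymes that cut collagens, gelatin and other matrix proteins, and most are made as inactive precursors. Mmp2 and Mmp9 are the gelatinases, Mmp3 is a stromelysin that can also activate other precursors, and Mmp14 is a membrane-bound collagenase that activates Mmp2 with the help of Timp2. The Timp proteins bind the active sites of these enzymes, and Timp3, which is held in the matrix, also inhibits Adamts enzymes. In the infarcted heart this system is known for breaking down the old matrix before a scar forms.

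Promoter sequence from RefSeq (GRCm38.p6) was matched for 7 of the 10 genes by symbol, all but Mmp2, Mmp9 and Adamts4. The 250 bases before each start were searched on both strands for 4 motifs. The AP-1 motif was spelled TGANTCA, and it was found in Mmp3 alone of the 7 and in 7.82% of the promoters of 27025 gene symbols. The TATA box was spelled TATAAA, and it was found in Mmp3 and Adamts1 (14.3% of all promoters). The GC box was spelled GGGCGG, and it was found in Mmp14, Timp1, Timp2, Timp3 and Adamts1 (35.4% of all). The Ets motif was spelled AGGAAG, and it was found in Mmp3, Mmp14, Timp1, Timp3 and Timp4 (32.3% of all). Among the members, no match shared letters with a match to another motif. Windows are shown because they tell apart the start of Mmp3, with AP-1 and TATA letters and no GC box, from that of Timp1, with a GC box and no TATA letters, and from that of Adamts1, with both. They run 5′ to 3′ on the strand of the gene, and capitals mark the matched letters. In order they lie at chr9:7445766-7445792, chr9:7445805-7445821, chr16:85803130-85803155 (minus strand) and chrX:20870148-20870165.
Mmp3 AP-1: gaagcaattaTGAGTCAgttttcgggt
Mmp3 TATA box: acaaccactcTATAAAa
Adamts1 TATA box: cctatgtggcTATAAAggggcggccg
Timp1 GC box: atcctggggcCCGCCCct
The Timp1 window holds the box on the opposite strand. In the Adamts1 window, a GC box in lower case follows the TATA letters. A match describes letters only, and no binding was measured.

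Values are the deposited CPM after the authors' TMM scaling, with 1 subtracted in the second table. The tables were normalized separately, and no test was made between them. In the first table the lowest value of a library, taken as the worth of about 1 read, lay between 0.0313 and 0.0479 CPM, while the depth of the second table is unknown. Tests were made with limma on log2(CPM + 1) over all genes that passed the filter, 12487 in the first table and 12555 in the second, with Benjamini-Hochberg adjustment over all of them, and a gene was called at an adjusted p under 0.05. Fold changes in linear form are ratios of mean CPM with the SD propagated from both groups. By their titles, the sham and 4 h libraries of the second table carry one series of sample numbers, the 48 h libraries another and the 24 h libraries none, so that time and library set cannot be told apart, except within 4 h and sham. The 24 h titles of the second table, and no others, also hold the letters Br, whose meaning could not be settled. A difference in tissue or preparation at 24 h therefore cannot be told apart from time. Luc 48 h libraries 1 and 3 stood apart from libraries 2 and 4, with correlations of log2(CPM + 1) of 0.984 within each pair and 0.945 to 0.969 between them, and the tests that use Luc 48 h are therefore also given without libraries 1 and 3. Low correlations occurred in other groups too. They were 0.940 between AC 4 h libraries 1 and 2, and 0.958 and 0.963 for AC 24 h library C with A and D. Between MI 24 h libraries C and G the correlation was 0.959. Cardiomyocyte markers defined the tissue in every group, with a summed level between 24520 CPM (MI 24 h) and 90370 CPM (Luc 24 h). In bulk tissue, fewer cells of a type and less RNA per cell cannot be told apart.

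In sham hearts, Timp2, Timp3 and Mmp2 were the leading members per kilobase of exon (GENCODE M21), with mean levels of 21.7, 19.4 and 18.5 CPM per kb in the first table and 27.4, 29.9 and 18.6 in the second. In the first table the range of Timp3 overlapped those of Timp2 and Mmp2, whereas Timp2 and Mmp2 did not overlap each other. Adamts1 (3.80 CPM per kb) and Mmp14 (2.80 CPM per kb) followed in the first table, then Timp4 (1.06) and Timp1 (1.04), which overlapped each other. Mmp3 (0.337 CPM per kb), Mmp9 (0.270) and Adamts4 (0.216) were lowest, again with overlapping ranges. Adamts1 and Mmp14 held the same places in the second table, at 5.41 and 3.13 CPM per kb.

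At 4 h post-MI, the clearest change among the members was in the Adamts proteases. Adamts1, which cleaves versican and aggrecan, measured 19.0, 20.4 and 21.0 CPM in the sham libraries and 110.2, 116 and 154 CPM in the MI 4 h libraries. The groups did not overlap, and the level rose 6.30 ± 1.22-fold (log2 fold change 2.58 ± 0.22 SE, adjusted p = 5.65e-05). Adamts4, an aggrecanase, measured 0.605, 0.812 and 1.70 CPM in sham hearts and 19.9, 22.8 and 24.6 CPM at MI 4 h, a 21.6 ± 12.3-fold rise (log2 fold change 3.55 ± 0.19, adjusted p = 1.52e-06). No sham library came near the MI 4 h levels of either gene.

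These were the 2 members called higher of 10 at MI 4 h, against 1.55% of all genes tested, and 0 members were called lower, against 0.817% of all genes. At an unadjusted p under 0.05, 6 members and 2058 of all genes passed in limma. The members' median log2 fold change was 0.63, and that of all genes was -0.03. Mmp14 measured 14.3, 16.996 and 18.8 CPM in sham hearts and 25.3, 25.8 and 28.4 CPM at 4 h. The groups did not overlap, but the difference missed the threshold (log2 fold change 0.64 ± 0.15, adjusted p = 0.0547). Timp1 lay at 0.617, 0.807 and 1.34 CPM in sham and 2.05, 2.44 and 4.45 CPM at 4 h, also without overlap (log2 fold change 1.02 ± 0.28, adjusted p = 0.0944). Mmp2, Timp2 and Timp3 likewise did not overlap between the groups, with adjusted p values of 0.156, 0.445 and 0.209, while Mmp3, Mmp9 and Timp4 overlapped. The share of all genes without overlap was not counted, so the lack of overlap is not read as a result about the members. Summed erythroid markers (5 of 5 listed) were 161 to 247 CPM in sham and 435 to 751 CPM at MI 4 h, with 4 of 5 called higher, and fibroblast markers were 1621 to 2071 and 2395 to 2589 CPM, with none called. The part of these lists in the members' values was not tested. In limma with array weights 7 members were called, and in a model of these groups alone 6, both counts above the 2 reported here.

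**Figure D1:**
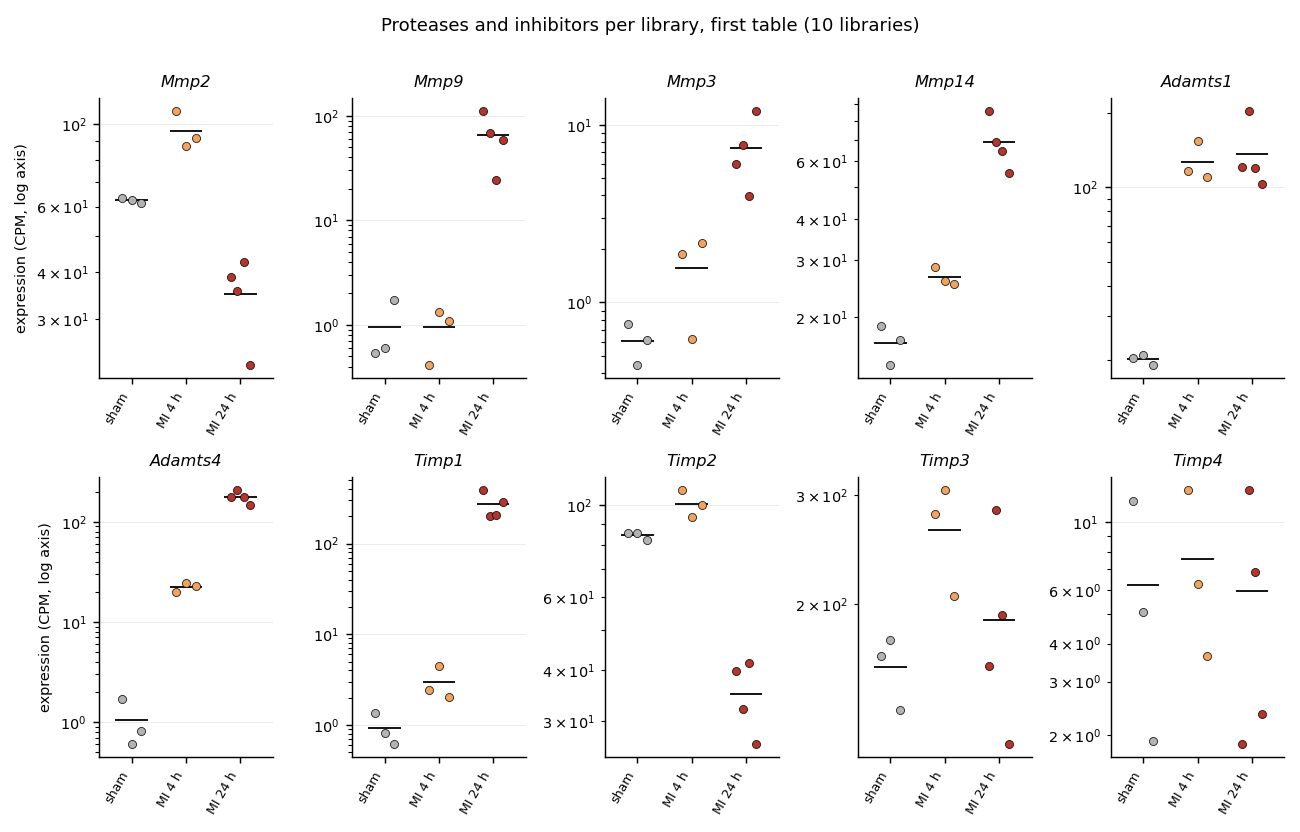
Expression of each member in the 10 libraries of the first table (CPM on a log axis, 1 point per library, bar at the group mean) for sham, MI 4 h and MI 24 h. Timp1 and Mmp9 sit near 1 CPM in sham hearts and at 201 to 394 CPM and 24.3 to 111 CPM at MI 24 h, whereas Mmp2 and Timp2 lie below their sham values.

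At 24 h post-MI in the first table, 6 members rose and 2 fell. Timp1, the inducible secreted inhibitor, measured 201, 206, 285 and 394 CPM, compared with 0.617 to 1.34 CPM in sham hearts. This was the largest fold of the 10 members, 295 ± 155-fold (log2 fold change 7.11 ± 0.26, adjusted p = 1.99e-08). Every MI 24 h library lay far above every sham and MI 4 h library.

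Adamts4 measured 147, 178, 179 and 209.8 CPM at MI 24 h, a 172 ± 99.2-fold rise over sham (log2 fold change 6.49 ± 0.17, adjusted p = 4.19e-09). It also rose between 4 and 24 h, by 2.93 ± 0.17 on the log2 scale (adjusted p = 6.02e-07). Adamts1 measured 103, 119.7, 121 and 204 CPM at 24 h and was higher than in sham (log2 fold change 2.66 ± 0.20, adjusted p = 1.22e-06), but it overlapped its MI 4 h values and the difference from 4 h was not called (0.07 ± 0.20, adjusted p = 0.765). The Adamts4 to Adamts1 ratio per kb had medians of 0.0470 in sham, 0.189 at MI 4 h and 1.60 at MI 24 h.

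Mmp9, a gelatinase stored by neutrophils, measured 24.3, 59.1, 67.6 and 111 CPM at MI 24 h, compared with 0.542, 0.605 and 1.72 CPM in sham and 0.414, 1.08 and 1.34 CPM at MI 4 h. The MI 24 h libraries lay above all others, and the level rose 68.5 ± 60.5-fold over sham (log2 fold change 4.95 ± 0.41, adjusted p = 2.14e-06). Summed neutrophil markers (9 of 10 listed) ran from 1.45 to 2.05 CPM in sham, where 3 of them were under 0.1 CPM in every library, from 7.60 to 31.6 CPM at MI 4 h and from 288 to 1844 CPM at MI 24 h. Mmp9 itself had means under 1 CPM in sham and at MI 4 h and so passed the filter through MI 24 h alone. Its calls for MI 24 h therefore carry no weight. Library G had both the lowest neutrophil sum (288 CPM) and the lowest Mmp9 level (24.3 CPM), and without it the Mmp9 log2 fold change was 5.36. The part of these markers in the result was not tested.

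Mmp3 measured 3.95, 6.06, 7.66 and 12.0 CPM at MI 24 h and 0.444, 0.617 and 0.759 CPM in sham (log2 fold change 2.31 ± 0.31, adjusted p = 5.56e-05). Mmp14 measured 55.3, 64.8, 69.0 and 85.7 CPM at MI 24 h, a 4.12 ± 0.94-fold rise (log2 fold change 1.97 ± 0.14, adjusted p = 8.74e-07). Neither gene overlapped between MI 24 h and any earlier group. Both also rose from 4 to 24 h (adjusted p = 5.69e-04 and 1.47e-05).

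Mmp2, the constitutive gelatinase, fell. It measured 61.2, 62.5 and 63.2 CPM in sham, 87.0, 91.4 and 108 CPM at MI 4 h and 22.6, 35.7, 38.8 and 42.7 CPM at MI 24 h, so that the 3 groups did not overlap. The fall from sham to 24 h was 0.56 ± 0.14-fold (log2 fold change -0.85 ± 0.18, adjusted p = 0.00141). Timp2, which takes part in activating Mmp2, followed the same order of groups: 82.7, 85.7 and 85.8 CPM in sham, 94.0, 100.1 and 109 CPM at 4 h and 26.4, 32.1, 39.7 and 41.5 CPM at 24 h. It fell to 0.412 ± 0.083-fold of sham (log2 fold change -1.28 ± 0.14, adjusted p = 1.36e-05). Summed fibroblast markers (8 of 8 listed) ran from 1621 to 2071 CPM in sham and from 729 to 1438 CPM at MI 24 h, with 5 of 8 called lower, and their part in the falls of Mmp2 and Timp2 was not tested.

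Timp3 and Timp4 were not called at 24 h. Timp3 measured 134, 165 and 175 CPM in sham, 206, 280.0 and 307 CPM at MI 4 h and 118, 158, 192 and 284 CPM at MI 24 h (24 h against sham, log2 fold change 0.19 ± 0.25, adjusted p = 0.524). Timp4 spread widely in every group of the first table, from 1.92 to 11.7 CPM in sham and from 1.88 to 12.8 CPM at MI 24 h, and no difference could be read at this spread. The counts of 6 members higher and 2 lower stand against 35.6% and 30.3% of all genes, and the members' median log2 fold change of 2.14 against 0.035 for all genes. Between MI 4 h and MI 24 h, 5 members were called higher and 2 lower (37.2% and 26.7% of all genes). Both counts of higher members and the median include Mmp9, which passed the filter through MI 24 h alone, so its part carries no weight. Both comparisons share the MI 24 h libraries. Cardiomyocyte markers fell in 5 of 8 genes at MI 24 h (24520 to 39660 CPM summed, 54710 to 58890 CPM in sham), and atrial markers (3 of 5 listed) summed to 80.5 to 296 CPM in sham and 1150 to 1822 CPM at MI 24 h. Monocyte and macrophage markers summed to 98.8 to 165 CPM in sham and 378 to 810 CPM at MI 24 h, with 7 of 10 called higher. The part of these lists in the members' changes was not tested.

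In the second table, Luc hearts at 4 h gave the same 2 calls as MI 4 h. Adamts1 measured 24.9 and 32.5 CPM in sham and 113, 120.4, 126 and 136 CPM in Luc 4 h libraries (log2 fold change 2.08 ± 0.39, adjusted p = 0.00423). Adamts4 measured 2.05 and 3.36 CPM in sham and 31.0, 36.1, 41.7 and 45.5 CPM in Luc 4 h libraries (log2 fold change 3.42 ± 0.57, adjusted p = 0.00159). Both sets of Luc 4 h values lay well above the sham values.

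These were 2 members higher and 0 lower, against 1.25% and 0.295% of all genes. At an unadjusted p under 0.05, 4 members and 1710 of all genes passed in limma. Without sham library 1 no member was called, Adamts1 at 1.90 (adjusted p = 0.156) and Adamts4 at 3.17 (adjusted p = 0.0759) on the log2 scale, and this fit leaves a lone sham library whose spread is assumed equal to that of the other groups. Mmp9 measured 0.444 and 0.815 CPM in sham and 2.67, 3.09, 4.38 and 4.86 CPM in Luc 4 h libraries. It did not overlap but missed the threshold (log2 fold change 1.53 ± 0.41, adjusted p = 0.0608). Summed neutrophil markers were 2.92 and 21.2 CPM in the sham libraries and 75.3 to 162 CPM in Luc 4 h libraries, and erythroid markers 196 and 647 CPM compared with 1723 to 2581 CPM, with 2 of 5 called higher. The part of either list in the members' values was not tested.

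**Figure D2:**
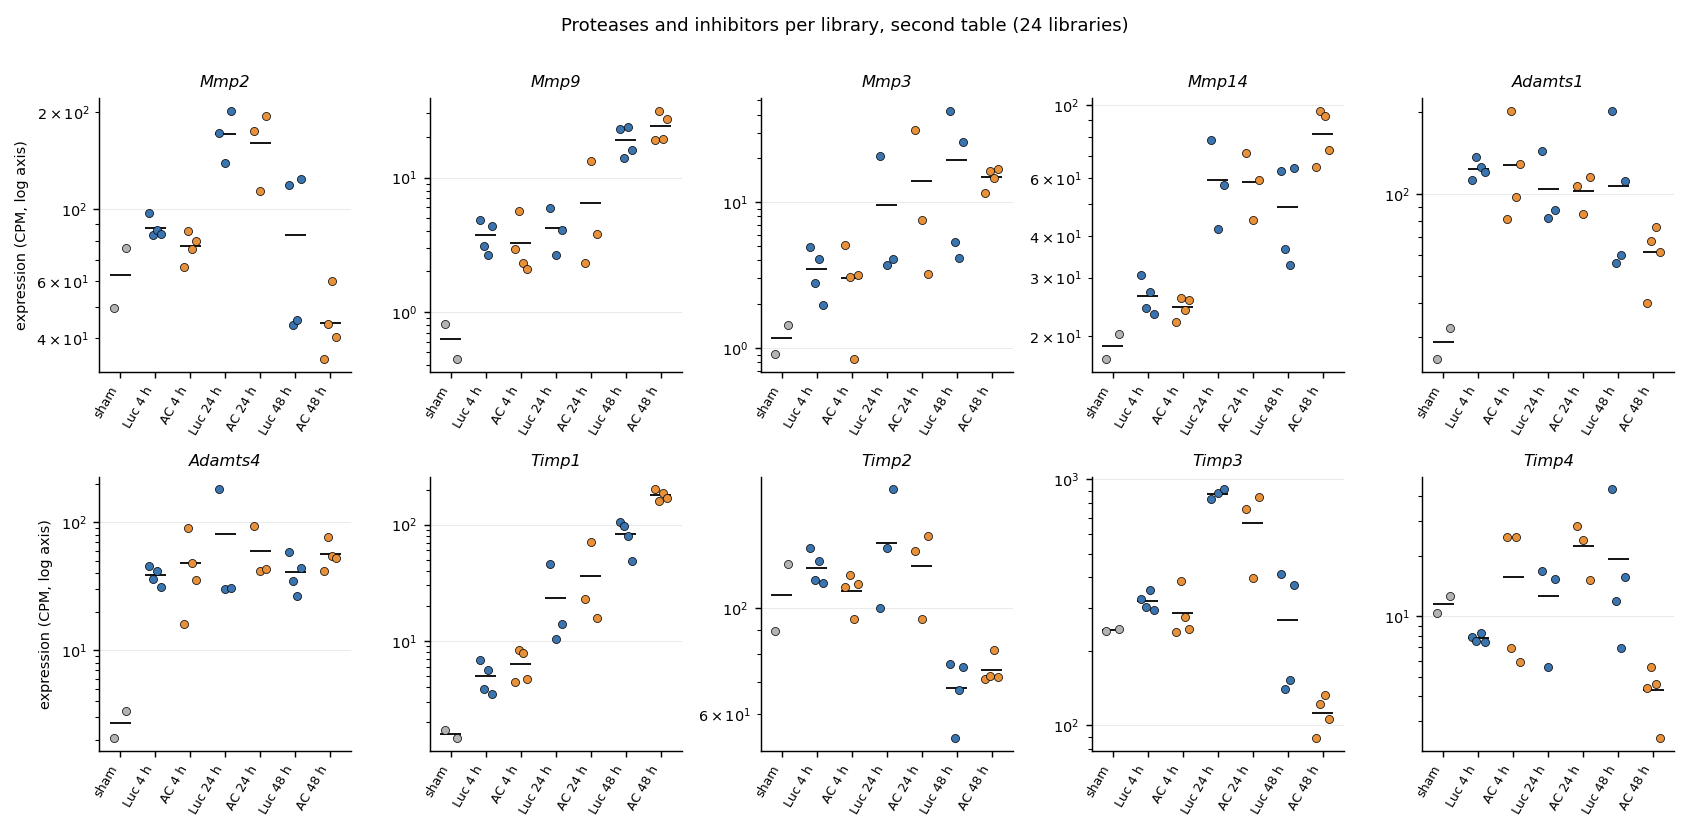
Expression of each member in the 24 libraries of the second table (CPM on a log axis, 1 point per library, bar at the group mean) for sham (grey), Luc (blue) and AC (orange) at 4, 24 and 48 h. Timp3 peaks at 24 h (835 to 911 CPM in Luc hearts) while Timp1 and Mmp9 are highest at 48 h, and Luc 48 h splits into 2 pairs of libraries for Mmp2, Mmp3, Mmp14 and Timp3.

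At 24 h the Luc hearts showed 7 members higher and 0 lower, against 25.3% and 8.79% of all genes. Of the genes called, 74.2% were higher, but only 52.8% after the deposited values were rescaled by the median ratio, which moved the median of all genes from 0.158 to -0.014 on the log2 scale. The 7 calls remained 7 after rescaling. Mmp2 and Timp3, which had fallen or not moved in the first table at this time, were higher here. Timp3, the matrix-bound inhibitor, measured 242 and 246 CPM in sham and 835, 878 and 911 CPM in Luc 24 h libraries (3.59 ± 0.16-fold, log2 fold change 1.84 ± 0.36, adjusted p = 5.22e-04, and 1.64 after rescaling). Mmp2 measured 49.7 and 75.8 CPM in sham and 139, 173 and 202 CPM in Luc 24 h libraries (log2 fold change 1.45 ± 0.35, adjusted p = 0.00333, and 1.25 after rescaling). Neither overlapped between the groups. Without sham library 1, Mmp2 was no longer called (1.15, adjusted p = 0.0888). Fibroblast markers summed to 1390 and 1545 CPM in sham and 2420 to 3592 CPM in Luc 24 h libraries, with 4 of 8 called higher and none lower. Their part in the Mmp2 and Timp3 values was not tested.

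Timp1 measured 1.46 and 1.73 CPM in sham and 10.3, 14.1 and 45.7 CPM in Luc 24 h libraries (log2 fold change 2.95 ± 0.50, adjusted p = 1.32e-04). Adamts4 measured 29.9, 30.8 and 180.2 CPM in the same libraries (log2 fold change 3.95 ± 0.60, adjusted p = 4.23e-05). Library A was the high one for both genes, and without it the log2 fold changes were 2.34 for Timp1 and 3.10 for Adamts4, both still called. It also held the highest Mmp3 (20.9 CPM, with 3.72 and 4.08 CPM in the others) and Adamts1 (144 CPM, with 81.9 and 87.5 CPM). Mmp3 was not called against sham (log2 fold change 1.91 ± 0.80, adjusted p = 0.0687).

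The other calls at Luc 24 h were Mmp14, at 42.2, 57.4 and 78.3 CPM compared with 16.98 and 20.3 CPM in sham (log2 fold change 1.58 ± 0.27, adjusted p = 1.56e-04), Mmp9 (1.64 ± 0.43, adjusted p = 0.0057) and Adamts1 (1.79 ± 0.41, adjusted p = 0.00198). Mmp9 reached 2.66, 4.08 and 5.91 CPM, which overlapped its Luc 4 h values. Summed neutrophil markers at Luc 24 h were 61.8 to 112 CPM, and atrial markers (4 of 5 listed) 362 to 603 CPM compared with 60.7 and 117 CPM in sham. All 4 atrial markers tested were called higher, among them Myl7 with means of 41.5 CPM at Luc 24 h and 0.0639 CPM in sham. The part of both lists in the members' values was not tested. Timp2 and Timp4 overlapped with sham and were not called.

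**Figure D3:**
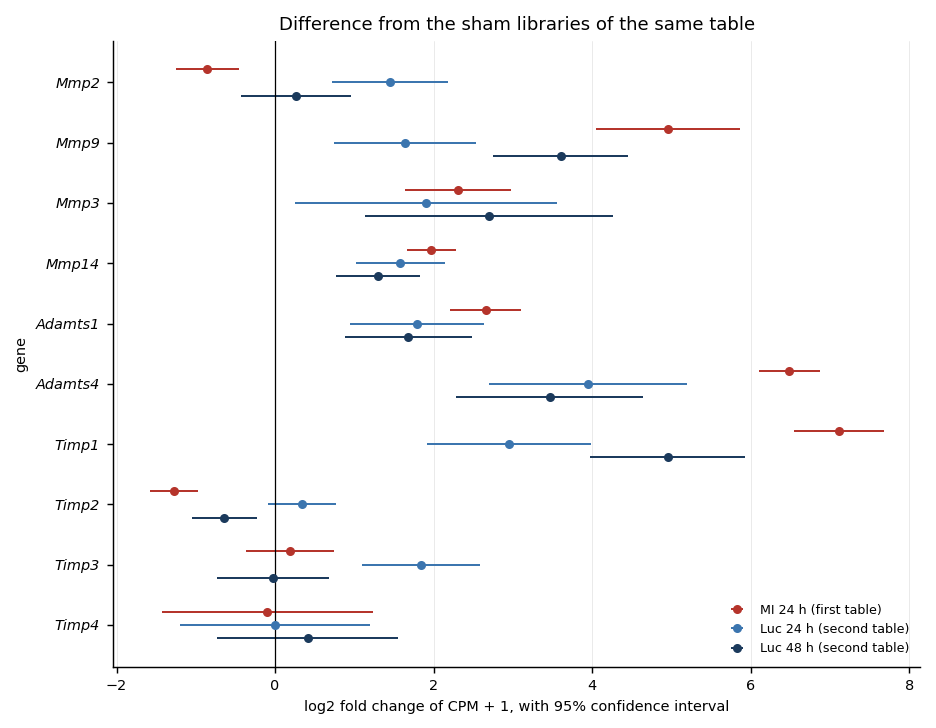
Log2 fold change of CPM + 1 with its 95% confidence interval for each member against the sham libraries of its own table, for MI 24 h (red), Luc 24 h (light blue) and Luc 48 h (dark blue). Mmp2 lies below 0 at MI 24 h (-0.85) and above 0 at Luc 24 h (1.45), and Timp1 lies above 0 in all 3 comparisons.

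At 48 h, Luc hearts had 6 members higher than sham and 1 lower, against 13.7% and 16.4% of all genes. Timp1 measured 48.8, 80.0, 96.5 and 105 CPM and rose 51.8 ± 16.7-fold (log2 fold change 4.95 ± 0.47, adjusted p = 3.8e-07). Mmp9 measured 14.0, 15.9, 23.0 and 23.6 CPM (log2 fold change 3.60 ± 0.41, adjusted p = 2.46e-06). Both lay above all sham, 4 h and 24 h Luc libraries. Summed neutrophil markers at Luc 48 h ran from 114 to 427 CPM, and their part in the Mmp9 level was not tested.

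Mmp14, Adamts1 and Adamts4 were also called higher at Luc 48 h (log2 fold changes 1.30 ± 0.26, 1.68 ± 0.39 and 3.46 ± 0.57, adjusted p = 7.33e-04, 0.00254 and 1.25e-04). Timp2 measured 53.3, 67.2, 75.2 and 76.3 CPM, below both sham libraries at 89.5 and 124 CPM (log2 fold change -0.64 ± 0.20, adjusted p = 0.0179). This call was lost without sham library 2 (-0.40, adjusted p = 0.242), without Luc 48 h library 2 (-0.53, adjusted p = 0.0501) and in a model of the compared groups alone (adjusted p = 0.0931). Mmp3 measured 4.17, 5.31, 26.0 and 42.6 CPM, the highest values being those of libraries 3 and 1. Its call (log2 fold change 2.70 ± 0.76, adjusted p = 0.00979) was lost without libraries 1 and 3 (1.41, adjusted p = 0.174), without sham library 1 (2.53, adjusted p = 0.0884) and under array weights. Without Luc 48 h libraries 1 and 3, the all genes called count was 2523 (3774 with all libraries), and 6 members were still called: Timp1 (5.10), Mmp9 (3.57), Adamts4 (3.10), Adamts1 (1.001, adjusted p = 0.0392) and Mmp14 (0.87, adjusted p = 0.0162) higher, and Timp2 (-0.81, adjusted p = 0.0149) lower.

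The same 2 libraries carried the high values of other members. Mmp2 measured 119 and 124 CPM in libraries 1 and 3 and 43.8 and 45.4 CPM in libraries 2 and 4, Timp3 measured 412 and 371 CPM compared with 141 and 153 CPM, and Adamts1 measured 202 and 112 CPM compared with 55.9 and 59.9 CPM. Timp1 and Mmp9 did not follow this split: Timp1 was 105 and 48.8 CPM in libraries 1 and 3 and 96.5 and 80.0 CPM in libraries 2 and 4, and Mmp9 was 23.0 and 15.9 CPM compared with 14.0 and 23.6 CPM. Summed markers of cardiomyocytes, neutrophils, endothelium and lymphocytes were also higher in libraries 1 and 3, while the other lists did not follow the split. Cardiomyocyte sums were 54140 and 45440 CPM in libraries 1 and 3 and 40890 and 39180 CPM in libraries 2 and 4. Neutrophil sums were 427.3 and 202.5 CPM compared with 189.8 and 114.0 CPM, and endothelial sums 630.8 and 560.8 CPM compared with 358.8 and 492.7 CPM. Fibroblast sums were 1843 and 1511 CPM compared with 1312 and 1800 CPM. The part of these lists in the split was not tested.

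Between neighbouring times in the second table, Mmp2 and Timp3 rose to 24 h and fell to 48 h, in Luc and in AC hearts. From 4 to 24 h, 4 members rose in Luc hearts (24.5% of all genes higher, 7.8% lower) and 4 in AC hearts (14.9% higher, 3.8% lower), namely Mmp2, Mmp14, Timp1 and Timp3 in each, and 0 fell. At an unadjusted p under 0.05 in limma, 4 members in Luc and 5 in AC hearts passed, against 5381 and 4255 of all 12555 genes. The log2 fold changes were 0.94 ± 0.30 in Luc and 1.03 ± 0.30 in AC hearts for Mmp2, 1.11 ± 0.23 and 1.20 ± 0.23 for Mmp14, 1.78 ± 0.42 and 2.10 ± 0.42 for Timp1, and 1.45 ± 0.30 and 1.17 ± 0.30 for Timp3. Each of the 4 genes lay higher in every 24 h library than in every 4 h library of its treatment. Median-ratio rescaling ended the Mmp2 call in Luc hearts (0.77, adjusted p = 0.0527), as did leaving out Luc 24 h library A (0.93, adjusted p = 0.0527) or D (0.81, adjusted p = 0.0811). Without library A the Timp1 value in Luc hearts was 1.17 (adjusted p = 0.0337). Median-ratio rescaling changed the share of higher genes among those called from 75.9% to 52.4% in Luc and from 79.7% to 52.5% in AC hearts. Leaving out AC 24 h library A or D ended the calls of Mmp2 and Timp3 in AC hearts, so that 2 members remained called. Atrial markers were called higher from 4 to 24 h in 4 of 4 genes tested, in Luc and in AC hearts. Their part in the members' changes was not tested.

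From 24 to 48 h, Luc hearts showed 2 members higher and 3 lower (9.32% and 32.6% of all genes), and AC hearts 2 higher and 4 lower (19.0% and 25.5% of all genes). After rescaling, the share of higher genes among those called in Luc hearts went from 22.3% to 49.0%, with the median of all genes moving from -0.247 to -0.028, and 5 members were still called. Mmp9 rose in both treatments (log2 fold change 1.96 ± 0.36 in Luc and 2.02 ± 0.36 in AC hearts), as did Timp1 (2.01 ± 0.42 and 2.56 ± 0.42). Mmp2 fell in both (-1.19 ± 0.30 and -1.82 ± 0.30), as did Timp2 (-0.98 ± 0.17 and -0.70 ± 0.17) and Timp3 (-1.86 ± 0.30 and -2.50 ± 0.30). Timp4, an inhibitor with a narrow tissue range, fell in AC hearts (-2.16 ± 0.49, adjusted p = 0.00114), from 15.1, 24.1 and 28.4 CPM to 2.46, 4.38, 4.61 and 5.61 CPM. Without Luc 48 h libraries 1 and 3 the calls of the 5 genes in Luc hearts remained, and Mmp14 and Adamts1 were also called lower in Luc hearts (-0.71, adjusted p = 0.0142, and -0.79, adjusted p = 0.0409). Cardiomyocyte markers were lower in 7 of 8 genes in both treatments, and monocyte and macrophage markers higher in 5 of 10 in Luc and 8 of 10 in AC hearts. Fibroblast markers were lower in 4 of 8 and higher in 1 in Luc hearts, and lower in 2 and higher in 3 in AC hearts, and erythroid markers were lower in 5 of 5 in Luc hearts. Atrial markers were lower in 3 of 4 and higher in 1 in Luc hearts, and lower in 0 and higher in 1 of 4 in AC hearts. The part of these lists in the members' changes was not tested. These comparisons share libraries with those from 4 to 24 h, and they run across library sets.

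The inhibitor transcripts differed in composition between the groups. On the scale of CPM per kb, Timp2 and Timp3 made up a median of 48.7% and 44.2% of the 4 inhibitors in sham hearts of the first table, and Timp1 2.01%. At MI 24 h the median share of Timp1 was 90.2% (lowest library 83.3%, highest 93.7%), while that of Timp2 was 2.59%. In the second table, Timp1 held a median of 2.98% in sham, 9.03% at Luc 24 h, 65.6% at Luc 48 h and 85.2% at AC 48 h, and Timp3 held 63.6% at Luc 24 h. The Timp1 share in AC 48 h libraries (83.9 to 88.3%) did not overlap that in Luc 48 h libraries (44.9 to 76.7%), of which libraries 1 and 3 had 60.4% and 44.9% and libraries 2 and 4 had 76.7% and 70.8%. The summed level of the 4 Timp members per kb had medians of 45.2 in sham, 67.3 at MI 4 h and 307 CPM per kb at MI 24 h, while that of the 4 Mmp members had 21.8, 32.9 and 42.4 CPM per kb. The Mmp to Timp ratio on this scale was 0.473 to 0.564 in sham and 0.115 to 0.168 at MI 24 h. In the second table the ratio overlapped between sham (0.325 to 0.407), Luc 24 h (0.330 to 0.426), AC 24 h (0.314 to 0.521) and Luc 48 h (0.184 to 0.543), and only AC 48 h (0.129 to 0.222) lay below sham without overlap. These shares and ratios are descriptions of RNA levels, without a test. They depend on the exon lengths used, 888 bases for Timp1 and 8144 for Timp3. Group means of CPM without length scaling put the Mmp to Timp ratio above that of sham, slightly at MI 24 h and more at AC 48 h. The direction of the change in this ratio therefore depends on the length scaling. On that scale Timp3 (269 CPM) also lay above Timp1 (82.5 CPM) at Luc 48 h.

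**Figure D4:**
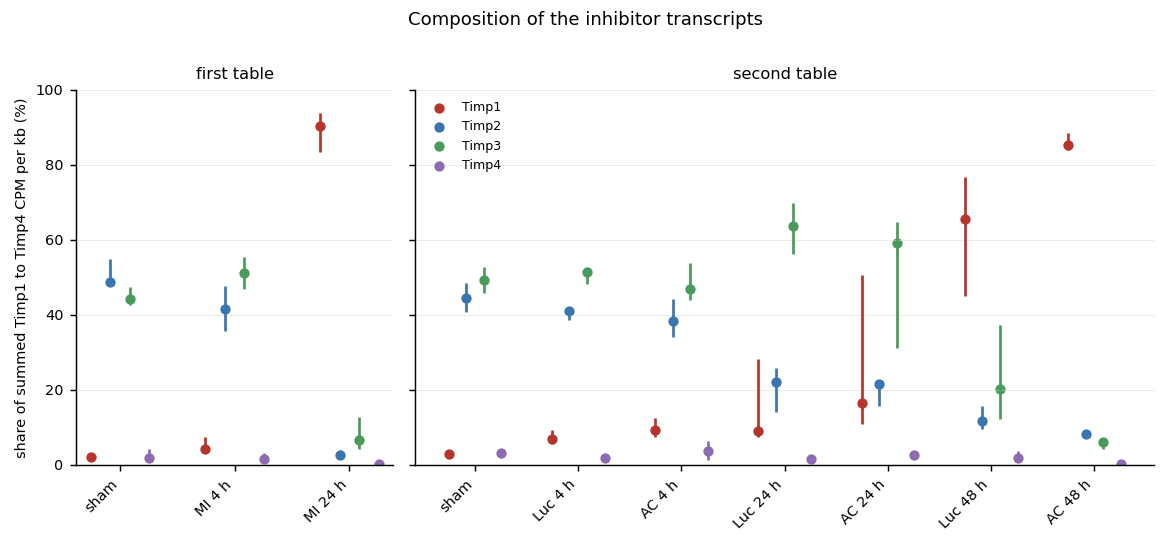
Share of each inhibitor in the summed CPM per kb of Timp1 to Timp4, in percent, by group of the first table (left) and second table (right), with the group median as a point and the lowest to highest library as a line. By median, Timp2 and Timp3 lead in sham and at 4 h, Timp3 leads in the second table at 24 h, and Timp1 leads at MI 24 h, Luc 48 h and AC 48 h.

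AC and Luc hearts were compared at each time. At 4 and 24 h no member was called, and 1 gene of all was called at each time (0.00796%). At an unadjusted p under 0.05, 0 members passed in limma at either time, and 131 and 599 of all genes. The intervals still allowed sizeable differences: the 95% confidence interval of the log2 fold change of Timp1 ran from -0.51 to 1.09 at 4 h and from -0.31 to 1.53 at 24 h, and that of Timp3 from -0.75 to 0.40 and from -1.13 to 0.20. Adamts4 at 24 h had an estimate of -0.001 with an interval of -1.11 to 1.11. The interval of Timp2 was the narrowest, from -0.49 to 0.17 at 4 h and from -0.53 to 0.25 at 24 h.

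At 48 h, Mmp14 and Timp1 were higher and Timp3 and Timp4 lower in AC than in Luc hearts, against 12.1% of all genes higher and 3.27% lower. Timp1 measured 159, 171, 187 and 201 CPM in AC and 48.8, 80.0, 96.5 and 105 CPM in Luc libraries, a 2.17 ± 0.69-fold difference (log2 fold change 1.16 ± 0.39, adjusted p = 0.0441). Timp3 measured 88.8, 107, 123 and 133 CPM in AC and 141, 153, 371 and 412 CPM in Luc libraries (log2 fold change -1.10 ± 0.28, adjusted p = 0.0111). Timp4 measured 2.46 to 5.61 CPM in AC and 6.91, 11.9, 15.7 and 43.2 CPM in Luc libraries (log2 fold change -1.69 ± 0.45, adjusted p = 0.0149). Mmp14 measured 64.7, 73.0, 92.4 and 96.1 CPM in AC and 32.7, 36.7, 62.9 and 64.3 CPM in Luc libraries (log2 fold change 0.76 ± 0.21, adjusted p = 0.018). None of these 4 genes overlapped between the groups.

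The 48 h calls depended on the libraries and settings used. The Timp1 call was lost in 7 of 10 alternatives, among them the filters, the pseudocount, the replicate block and rescaling, and in 10 of 24 fits that left out a library, with a log2 fold change between 0.93 and 1.29 throughout. The Timp3 call was lost with the groups compared alone, under the replicate block and without Luc 48 h library 1 or 3. The Timp4 call was lost under the replicate block and without AC 48 h library 5 or Luc 48 h library 1. The Mmp14 call was lost with the groups compared alone, under rescaling and without AC 48 h library 2 or 4 or Luc 48 h library 2. Without Luc 48 h libraries 1 and 3 together, only Mmp14 remained called (log2 fold change 1.19, adjusted p = 0.00475), while Timp1 stood at 1.02 (adjusted p = 0.284), Timp3 at -0.40 (adjusted p = 0.415) and Timp4 at -0.98 (adjusted p = 0.307). Leaving out Luc 48 h library 1 alone left 1 call. Mmp2, with AC values of 34.4 to 59.9 CPM, missed the threshold (-0.74 ± 0.27, adjusted p = 0.0697) and stood at -0.03 without those libraries. Adamts1 went from -0.64 to 0.04, Mmp3 from 0.18 to 1.47, Adamts4 from 0.48 to 0.84, Mmp9 from 0.33 to 0.36 and Timp2 from 0.13 to 0.30, none of them called either way. After median-ratio rescaling, which took the median of all genes from 0.135 to 0.003 and the share of higher genes among those called from 78.7% to 50.6%, Mmp14 (0.62, adjusted p = 0.0531) and Timp1 (1.01, adjusted p = 0.0867) were no longer called, Timp3 (-1.25) and Timp4 (-1.83) remained called, and Mmp2 was called lower (-0.89, adjusted p = 0.0351). Monocyte and macrophage markers were higher in 8 of 10 genes in AC 48 h libraries (455 to 638 CPM summed, 214 to 295 CPM in Luc 48 h) and cardiomyocyte markers lower in 3 of 8 (28640 to 36910 CPM and 39180 to 54140 CPM). Fibroblast markers were higher in 4 of 8 (1782 to 2707 CPM and 1312 to 1843 CPM), as were 8 of 17 matrix substrates, and none of either list was lower. Their part in the AC and Luc difference was not tested.

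**Figure D5:**
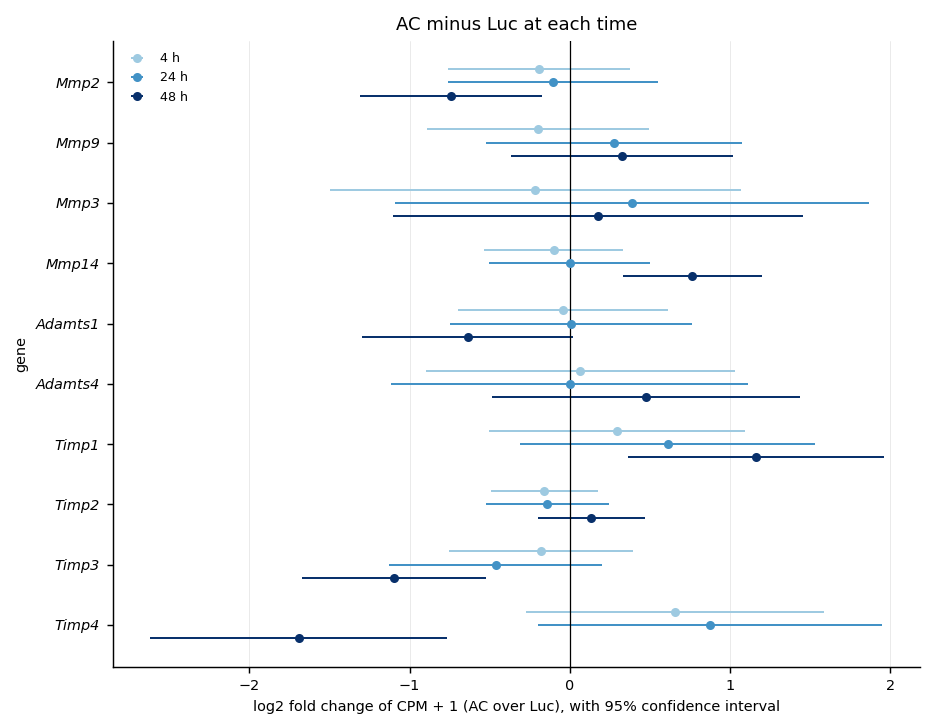
Log2 fold change of CPM + 1 of AC over Luc hearts, with its 95% confidence interval, for each member at 4, 24 and 48 h. The 4 and 24 h intervals all include 0, and at 48 h those of Mmp14 and Timp1 lie above 0 and those of Mmp2, Timp3 and Timp4 below.

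The change of the AC and Luc difference over time was tested as an interaction. Between 4 and 24 h no member and 1 gene of all (0.00796%) was called, and 0 members and 379 of all genes had an unadjusted p under 0.05 in limma. Between 24 and 48 h, 1 member, Timp4, was called lower (-2.57 ± 0.69, adjusted p = 0.0463) and 0 higher, against 0.335% and 2.23% of all genes. Its AC minus Luc difference went from 0.87 ± 0.52 at 24 h to -1.69 at 48 h. The adjusted p ranged from 0.0109 to 0.192 over the alternatives, and the call was lost in 6 of 9 alternatives, among them the fit without Luc 48 h libraries 1 and 3 (-1.85, adjusted p = 0.192), and in 18 of 24 fits that left out a library. Rescaling took the share of higher genes among those called in this interaction from 87.0% to 55.7%.

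The related genes of the system were counted in lists drawn up by function. Of the other matrix metalloproteinases, 5 of 10 tested were called higher and 4 lower at MI 24 h, and 3 higher and 2 lower of 9 at Luc 24 h. Mmp8, Mmp12 and Mmp25, which are 3 of the 5 higher at MI 24 h, had means under 1 CPM in sham and at MI 4 h and passed the filter through MI 24 h alone, so their part of the count carries no weight. Mmp8, the neutrophil collagenase, reached 21.6 ± 19.9 CPM (n = 4) from 0.0823 ± 0.0469 CPM (n = 3) at MI 24 h. Mmp12, the macrophage elastase, reached 8.16 ± 0.75 CPM from 0.231 ± 0.045 CPM, and Mmp19 rose 9.59 ± 2.45-fold. The membrane-type Mmp15 was lower in both tables (log2 fold change -2.57, adjusted p = 6.46e-06 at MI 24 h, and -1.03, adjusted p = 0.026 at Luc 24 h), as was Mmp11 (-0.94, adjusted p = 0.00156, and -0.93, adjusted p = 0.00427). Mmp28 was lower at MI 24 h (-0.72). At Luc 24 h, Mmp13, a collagenase (1.66, adjusted p = 0.00112), Mmp8 (1.56, adjusted p = 0.0475) and Mmp17 (0.77, adjusted p = 0.0194) were higher.

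Other Adamts and Adamts-like genes were called higher in 3 of 18 and lower in 9 of 18 cases at MI 24 h. Adamts3 (0.179 ± 0.068-fold), Adamts7 (0.291 ± 0.092-fold) and Adamts10 (0.403 ± 0.041-fold) fell, while Adamts9 (3.09 ± 1.27-fold) and Adamtsl5 (1.45 ± 0.25-fold) rose. At Luc 24 h, 6 of 17 were higher and 0 lower, led by Adamts8 (log2 fold change 2.98, adjusted p = 4.36e-05), Adamts15 (1.75) and Adamtsl2 (1.63). Of the membrane Adam proteases, 4 of 7 were higher at MI 24 h and none lower. Adam8, a leukocyte protease, rose 162 ± 86.9-fold there, Adam12 10.4 ± 5.3-fold and Adam9 2.18 ± 0.14-fold. At Luc 24 h, 3 were higher (Adam8, Adam15 and Adam9, log2 fold changes 2.22, 0.96 and 0.86) and 2 lower (Adam19 and Adam17, the tumour necrosis factor convertase, -1.43 and -0.66).

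Among other inhibitors, activators and receptors, 10 of 18 were higher and 5 lower at MI 24 h, and 11 of 18 higher and 0 lower at Luc 24 h. Lcn2, a neutrophil protein that binds Mmp9, rose at MI 24 h and Luc 24 h (log2 fold changes 6.78 and 6.80), and so did Thbs1, a matricellular protein (5.17 and 2.85). The proprotein convertase Pcsk6 (-2.54), Thbs2 (-1.32) and the membrane-anchored inhibitor Reck (-0.69, adjusted p = 8.65e-04) were lower at MI 24 h. Of the matrix substrates, 5 of 17 were higher and 3 lower at MI 24 h, and 9 of 17 higher and 0 lower at Luc 24 h. Versican (Vcan), a substrate of Adamts1 and Adamts4, rose 3.10 ± 0.97-fold and 6.57 ± 1.74-fold, and tenascin C (Tnc) 83.7 ± 50.5-fold and 15.9 ± 17.2-fold. Col4a1 rose at Luc 24 h (4.38 ± 1.63-fold) and fibronectin (Fn1) at MI 24 h (4.06 ± 1.99-fold). The proteoglycans Lum (0.459 ± 0.157-fold) and Dcn (0.675 ± 0.147-fold) were lower at MI 24 h, and both also stand in the fibroblast marker list. These counts are to be read against the shares of all genes given above for the same comparisons.

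Each member was also set beside the 12258 genes tested in both tables by the smaller of its Pearson correlations of log2(CPM + 1) over the 10 and the 24 libraries, as a description. All libraries enter each correlation, so the differences between groups are shared by all pairs. Mmp9 was most like Csf3r, the receptor of granulocyte colony-stimulating factor (r = 0.985 and 0.963). Timp1 was most like Fgr, a myeloid kinase (0.987 and 0.975). Adamts4 was most like Il1b (0.966 and 0.917), with Plekho2 and Plaur after it. Adamts1 was most like Btg2, an immediate early gene (0.969 and 0.905), followed by Bhlhe40 and Fosl2. The second gene for Mmp2 was Dcn (0.981 and 0.913), after C1qtnf1 (0.933 and 0.919). Mmp14 was most like Cttn (0.95 and 0.968), Mmp3 like Tmbim1 (0.874 and 0.892), Timp2 like Aplp2 (0.939 and 0.904) and Timp3 like Slc43a3 (0.896 and 0.961). Timp4 had the weakest likeness of the 10, with Sult1a1 at 0.85 and 0.789.

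In the coordinates of the deposited tables (mm10), Timp1, Timp3 and Timp4 lie on the opposite strand within the spans of Syn1, Syn3 and Syn2, and the sources used here do not say whether counting used strand. Syn1 and Syn3 stayed between 0.0955 and 1.15 CPM over all libraries of both tables. Syn2 reached 5.55 CPM in the second table, close to the AC 48 h values of Timp4. In the first table Syn2 ran from 0.837 to 1.70 CPM, close to the lowest Timp4 value of 1.88 CPM. The low Timp4 values of both tables are therefore uncertain.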

How the data were processed

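RNA was measured by poly(A) RNA-seq in mouse LV. For the first table the authors sequenced single 50-bp reads, aligned them to mm10 with STAR, counted RefSeq genes in Partek by expectation-maximization, and scaled the counts by TMM. The deposited values are CPM. The second table holds deposited CPM plus 1, from which 1 was subtracted. Its processing beyond mm10 is not given in the sources used here. All groups of a table were fitted in a single model (lmFit, eBayes with a trend) with limma 3.58.1 in R 4.3.3 on log2(CPM + 1), without covariates, since no whole reads could be recovered for a count test. P-values measure the spread between libraries, which for the second table may be technical. Interaction terms compared AC and Luc between times.

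The members and lists were chosen with earlier results of these data known. All members were named, with up to 3 increases and 3 decreases per list at 24 h against sham among called genes whose groups did not overlap (mean of at least 1 CPM), and the genes most like each member. A gene that this rule names is not reported here. The alternatives were a pseudocount of 0.1, no filter or 5 CPM, the groups alone, no trend, array weights, median-ratio rescaling, the value without subtraction, a replicate block, and each library left out. The fits without Luc 48 h libraries 1 and 3 were chosen after seeing the data. On simulated data for MI 24 h against sham, 100 of 100 genes changed 4-fold and 60 of 100 changed 2-fold were called, with 6 false calls of 12486 genes. For Luc 24 h against sham the numbers were 96 and 33 (7 false of 12565), and for AC against Luc at 24 h 99 and 56 (8 false of 12562). The simulation gave all genes the same spread setting and assumed a depth, so these numbers are not the power in the real libraries. Promoters came from RefSeq, exon lengths from GENCODE M21. Protein sequences were not used here.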

Additional observations from a re-analysis of the deposited data

Results flagged for a closer look

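Timp2 in AC 48 h library 4 measured 81.6 CPM, while the other 3 libraries lay between 71.1 and 71.9 CPM, a gap large for a group of 4. In all, 50 such checks were made over the members and groups, of which chance alone marks about 1 in 20, and this was the single one marked.

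The AC and Luc difference of Timp4 changed between 24 and 48 h, by -2.57 on the log2 scale (limma interaction, adjusted p = 0.0463). The AC minus Luc difference was 0.87 at 24 h, where it was not called (adjusted p = 0.991), and -1.69 at 48 h. The call of the change was lost in 6 of 9 alternatives and in 18 of 24 fits that left out a library.

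Mmp2 at 24 h went in opposite directions in the 2 tables. Every MI 24 h library lay below every sham library of the first table (log2 ratio of the group means of CPM -0.835), and every Luc 24 h and AC 24 h library above every sham library of the second (1.45 and 1.36). The differences of 2.28 (Luc) and 2.20 (AC) on the log2 scale were not tested, as the tables were normalized separately and differ in injection. Titles of the second table at 24 h also hold the unexplained letters Br. Summed fibroblast markers moved in the same directions, down to 729 to 1438 CPM at MI 24 h and up to 2420 to 3592 CPM at Luc 24 h. Other lists differed between these groups too. Cardiomyocyte markers summed to 24520 to 39660 CPM at MI 24 h and 72230 to 90370 CPM at Luc 24 h. Monocyte and macrophage markers summed to 378 to 810 and 126.5 to 165 CPM, and neutrophil markers to 288 to 1844 and 61.8 to 112 CPM. The part of these lists was not tested.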

How the results depend on the processing

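Of 4457 refitted fold changes of members, 4213 kept their direction and side of the threshold, 71 lost and 37 gained a call, 136 that were not called moved, and 0 reversed. The cause was not tested for any of these. The number of members called at MI 4 h against sham was 2, and 4 with a pseudocount of 0.1, 7 with array weights, 6 with the groups compared alone and 2 to 4 with a library left out. At Luc 4 h it was 2, and 4 with the groups alone and 0 to 3 with a library left out. For AC 24 h against AC 4 h it was 4, and 2 to 4 with a library left out. For AC against Luc at 48 h it was 4, and 2 with the groups alone, 1 without Luc 48 h libraries 1 and 3, and 1 to 4 with a library left out. For the change of the AC and Luc difference from 24 to 48 h it was 1, and 0 with a pseudocount of 0.1, no filter, a filter of 5 CPM, no subtraction of 1 or without Luc 48 h libraries 1 and 3, and 0 to 1 with a library left out. The other members called counts stayed within 1.5 times, among them 8 of 8 at MI 24 h under every library left out.

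Same-numbered AC and Luc libraries did not all deviate together, with correlations of -0.141 to 0.252 at 4 h, -0.071 to 0.092 at 24 h and -0.206 to 0.197 at 48 h, and the other comparisons had at most 2 such pairs (-0.265 to 0.345). The numbers were therefore not taken to pair the libraries, although 1 of 4, 0 of 3 and 2 of 3 correlated best with their own number. A replicate block left 1 member called for AC against Luc at 48 h (Mmp14) and 0 for the change from 24 to 48 h, and 440 and 83 of all genes called, and changed no other members called count.

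The all genes called counts varied more. MI 4 h against sham gave 296, with 2500 under array weights, 705 with the groups alone and 105 to 560 with a library left out. Luc 4 h gave 194, with 596 alone and 52 to 325. Luc 24 h gave 4275, with 1684 without sham library 1. Luc 48 h gave 3774, with 2227 under array weights, 1494 alone and 2153 without sham library 1. Luc 24 h against Luc 4 h gave 4058, with 6147 under array weights, and AC 24 h against AC 4 h 2351, with 4549 under array weights, 929 alone and 1074 without library D. AC against Luc gave 1 at 4 h and 24 h, with 4 and 6 under no filter, 6 under array weights at 4 h, 4 and 8 without subtraction and 0 alone at 24 h. At 48 h it gave 1926, with 1182 at 5 CPM, 3178 under array weights, 1208 alone, 346 without Luc libraries 1 and 3 and 812 to 2890 with a library left out. The change of the AC and Luc difference gave 1 from 4 to 24 h (3 with no filter, 8 without subtraction) and 322 from 24 to 48 h (205, 495, 119, 991, 553 and 104 under a pseudocount of 0.1, no filter, 5 CPM, array weights, no subtraction and without Luc libraries 1 and 3, and 133 to 702 with a library left out).

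With 2 sham libraries in the second table, leaving out 1 leaves a lone library. The depth of the second table is unknown, and values far under 1 CPM in the first rest on few reads.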
